A study of Mus musculus with 2 samples.

Results

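The 7 mouse miRNA genes described here are Mir34a, Mir34b, Mir34c, Mir192, Mir194-1, Mir194-2 and Mir215, a set of genes known as targets of the tumour suppressor p53. They were listed by name, with earlier results of these data known, and all 7 were found among the 2202 miRNA genes of the deposited tables. They lie at 4 loci, which are miR-34a alone, the miR-34b/c pair, the Mir192/Mir194-2 pair and the Mir215/Mir194-1 pair. Small RNA was sequenced from C2C12 cells, a myoblast line that came from injured thigh muscle of C3H mice and can fuse into myotubes. The labels number the 2 libraries as biological replicates of a single group, with RNA below 30 nucleotides, and name no genotype change, treatment, time or culture stage. The data therefore hold no contrast between conditions, and no arm in which p53 was activated or removed.

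When DNA is damaged or growth is stressed, p53 binds near miRNA genes as well as protein-coding genes and raises their transcription. The miR-34 miRNAs are the best known of these, and they repress messages for cell cycle and survival proteins such as CDK6, MET and BCL2. Mir34a is expressed in many tissues, whereas the Mir34b and Mir34c pair is best known from testis, lung and multiciliated epithelium. The miR-192, miR-194 and miR-215 miRNAs are abundant in liver, gut and kidney, and have also been described as mediators of p53-dependent cell cycle arrest.

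The mature sequences are shown first because the loci are paired by what they encode. Each is written 5′ to 3′ from RefSeq on GRCm38.p6, with the seed, bases 2 to 8, in capitals. The seed is the stretch that pairs with target messages, so miRNAs with the same seed can bind the same sites. All 7 genes matched a hairpin in the RefSeq table, and 12 distinct mature sequences belonged to them.
miR-34a-5p: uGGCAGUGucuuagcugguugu
miR-34b-5p: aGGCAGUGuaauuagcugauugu
miR-192-5p: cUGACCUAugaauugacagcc
miR-215-5p: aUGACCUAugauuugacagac
miR-194-5p: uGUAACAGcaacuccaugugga
miR-34b-3p: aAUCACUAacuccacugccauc
miR-34c-3p: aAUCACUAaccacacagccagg
The miR-34a-5p seed was shared with miR-34b-5p, miR-449a-5p and miR-449c-5p among the mature entries of that table. The mature miR-34c-5p is not used here, so neither this list nor the mature sequences printed hold it, and the Mir34c hairpin holds the same heptamer. The seed of miR-192-5p was shared only with miR-215-5p in that table, and these arms were identical at 18 of 21 bases. Counted from 1 at the 5′ end, with the miR-192-5p base first, they differ by C1A, A12U and C20A, all outside the seed. The 3′ arms of the miR-34b/c pair share a seed that no other mature sequence of the table had, and differ at 5 of 22 bases. The sequence of miR-194-5p occurs in 2 genes, Mir194-1 and Mir194-2.

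The hairpins show where these arms sit and which hairpins share a whole arm. Capitals mark the heptamer of the miR-34a-5p seed in the miR-34 hairpins, and the whole miR-194-5p sequence in the miR-194 hairpins.
Mir34a: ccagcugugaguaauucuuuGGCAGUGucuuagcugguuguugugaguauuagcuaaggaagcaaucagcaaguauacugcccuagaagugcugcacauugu
Mir34b: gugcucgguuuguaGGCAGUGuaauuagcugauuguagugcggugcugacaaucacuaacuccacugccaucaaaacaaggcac
Mir34c: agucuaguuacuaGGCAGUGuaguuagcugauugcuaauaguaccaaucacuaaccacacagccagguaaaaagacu
Mir194-1: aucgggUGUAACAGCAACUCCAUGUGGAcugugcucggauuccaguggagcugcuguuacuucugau
Mir194-2: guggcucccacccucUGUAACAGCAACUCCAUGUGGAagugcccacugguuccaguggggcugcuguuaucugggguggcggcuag
The heptamer occurred 1 time in each miR-34 hairpin. The longest stretch that Mir34a shared with any other of the 2202 hairpins was 12 bases, and it was 11 bases for Mir34b, Mir34c and Mir215 and 13 bases for Mir192. Mir194-1 and Mir194-2 shared 22 bases, which is the whole of miR-194-5p. A read of miR-194-5p that stays within these bases fits both places, so the levels of Mir194-1 and Mir194-2 and the split between them are uncertain, and a low count there sets no limit on miR-194-5p. Their 3′ arms differ at 4 of 22 bases. Each count covers a whole hairpin, both arms together.

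The 4 loci lie on 4 chromosomes of mm10, and their annotation differs. Mir34a spans chr4:150068454-150068555 on the plus strand, and 17 of its bases overlap an exon of Gm37795, a same-strand transcript model. Mir34c (chr9:51103034-51103110) and Mir34b (chr9:51103562-51103645) lie on the minus strand with 451 bases between them, in an intron of Btg4, which is transcribed the other way. Mir194-2 (chr19:6264643-6264728) and Mir192 (chr19:6264844-6264932) lie on the plus strand, 115 bases apart, and overlap no other annotated gene. Mir194-1 (chr1:185313319-185313385) and Mir215 (chr1:185313581-185313692) lie on the plus strand, 195 bases apart. Both sit in introns of Iars2 on the opposite strand. On their own strand they lie in 2010103J01Rik, Mir215 over an exon and Mir194-1 in an intron. GC content ranged from 40.3% in the Mir34c hairpin to 60.5% in the Mir194-2 hairpin, around a median of 50.8% over all hairpins.

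The libraries held 27661907 reads on the strand of a miRNA gene in replicate 1 and 15025315 in replicate 2. Levels are given as counts per 1000000 of these reads (CPM). A single abundant gene, Mir21a, took 23.1% of them in replicate 1 and 53.5% in replicate 2, which lowers the CPM of other genes in replicate 2. Of 6 muscle-specific genes, Mir206, which marks skeletal muscle, had 2559 and 1028 CPM in replicates 1 and 2, and Mir133b 88.0 and 20.4 CPM. These 2 were the tested genes of the list. Both were called lower in replicate 2 by the between-library test described below, beside 16.9% of all tested genes. Mir133b shares a stretch of 21 bases with Mir133a-1, so its level is uncertain. Mir133a-1, Mir133a-2 and Mir1a-1 were at 0 counts in each library, and Mir1a-2 had 3 counts in replicate 1 and 0 in replicate 2. Their hairpins share 28 to 31 bases with a copy and multi-mapping reads lie outside the counts, so this sets no limit on miR-1 or miR-133a. In such bulk samples, fewer cells with a miRNA and less of it per cell cannot be told apart.

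The 7 genes covered more than 4 orders of magnitude in level, and the miR-34b/c locus held most of their reads. Together they took 2.50% and 1.49% of the reads of replicates 1 and 2. Mir34c alone was among the 10 most abundant miRNA genes of these cells, whereas Mir215 and Mir194-1 stood near 1 CPM. The order of mean levels was Mir34c, Mir34a, Mir34b, Mir192, Mir194-2, Mir215 and Mir194-1, and it was the same per 100 bases of hairpin. A read here is a short RNA and not a fragment of the hairpin, so CPM without a length term is used below.

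**Figure D1:**
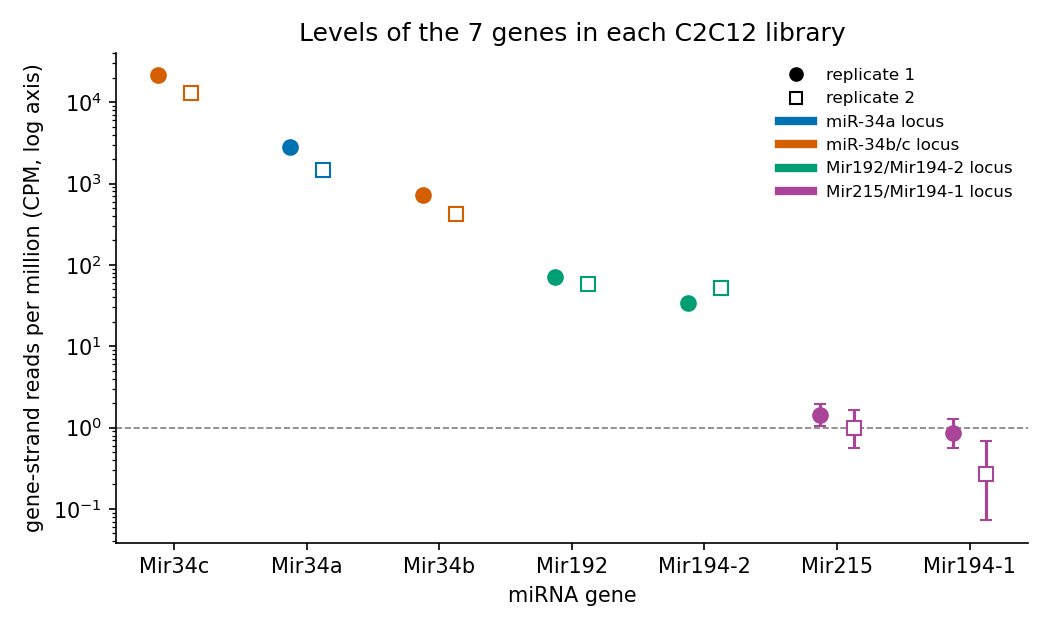
Gene-strand CPM (log axis) of the 7 genes in replicate 1 (filled circles) and replicate 2 (open squares), coloured by locus, with exact Poisson 95% intervals that cover counting error only and a dashed line at 1 CPM. Mir34c lies at 21367 and 12908 CPM, while Mir215 and Mir194-1 lie near or below the line.

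Mir34c had 591046 reads in replicate 1 and 193943 in replicate 2, or 21367 and 12908 CPM. Its mean was 17137 ± 5981 CPM (SD, n = 2), and it ranked 8 of 2202 genes in both libraries. Both libraries thus placed this gene, known for its high level in testis and ciliated epithelium, among the leading miRNA genes of a myoblast line. Mir34b, its partner in the same pair, had 20170 and 6372 reads, or 729 and 424 CPM. The mean of Mir34b was 577 ± 216 CPM (SD, n = 2), with ranks of 80 and 83.

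Within the pair nearly all reads fell on Mir34c. Its share of the pair was 96.7% (exact Clopper-Pearson 95% interval 96.65 to 96.74) in replicate 1 and 96.8% (96.74 to 96.90) in replicate 2. The ratio of Mir34c to Mir34b was 29.3 and 30.4, a mean of 29.9 ± 0.802 (SD, n = 2). The replicates differed in this ratio by far less than the distance of either from an even split.

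Mir34a, the most widely expressed gene of the family, came next. It had 77810 reads in replicate 1 and 22207 in replicate 2, or 2813 and 1478 CPM, with a mean of 2145 ± 944 CPM (SD, n = 2) and ranks of 50 and 53. Mir34a lay above Mir34b in both libraries, by 3.86 and 3.49 times, and below Mir34c by 7.60 and 8.73 times. The ranges of these 3 genes over the libraries did not overlap.

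**Figure D2:**
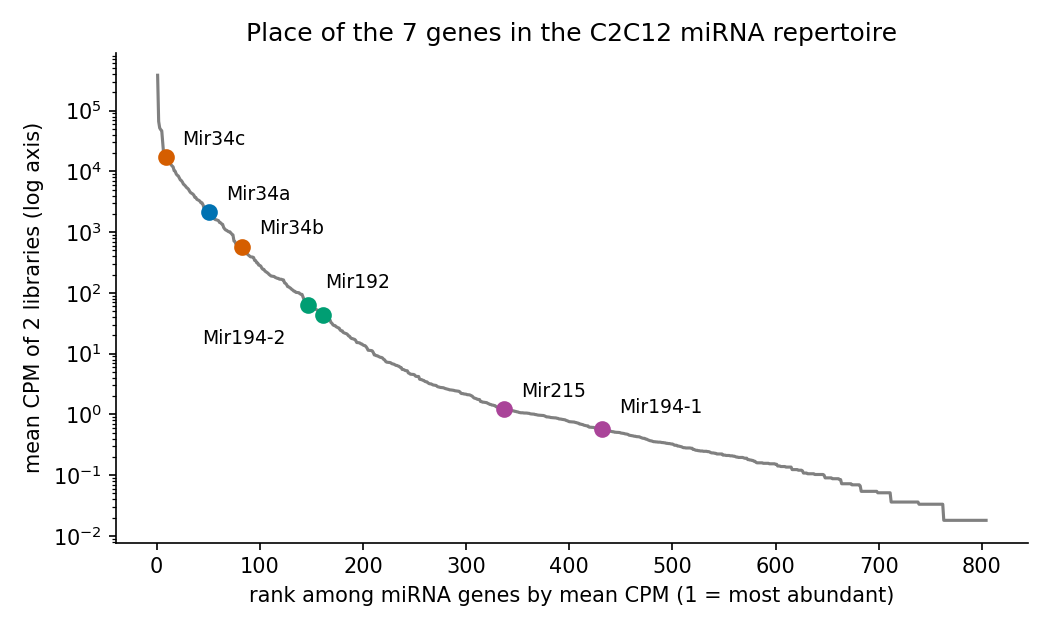
Mean CPM of the 2 libraries (log axis) against rank for every miRNA gene with a read, as a grey line, with the 7 genes as points coloured by locus. By mean CPM, Mir34c stands at rank 9, Mir34a at 51 and Mir34b at 83, while Mir192 and Mir194-2 stand at 147 and 161 and Mir215 and Mir194-1 at 337 and 432.

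The Mir192/Mir194-2 locus was expressed at a far lower level. Mir192 had 1951 and 865 reads, or 70.5 and 57.6 CPM, with a mean of 64.0 ± 9.16 CPM (SD, n = 2). Mir194-2 had 940 and 788 reads, or 34.0 and 52.4 CPM, a mean of 43.2 ± 13.1 CPM (SD, n = 2). Both lay close to the median of 43.9 CPM over the 320 genes that reached 1 CPM in both libraries.

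Mir192 and Mir194-2 are neighbours in the order of levels that were not clearly apart. Mir192 took 67.5% of the pair in replicate 1 (exact Clopper-Pearson 95% interval 65.7 to 69.2) but 52.3% in replicate 2 (49.9 to 54.8), an interval that includes an even split. The ratio between them was 2.08 in replicate 1 and 1.10 in replicate 2. The shared sequence of miR-194-5p adds to this uncertainty, and its part in the shift between the libraries was not tested.

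The Mir215/Mir194-1 locus was near the limit of detection. Mir215 had 40 reads in replicate 1 and 15 in replicate 2, or 1.45 CPM (exact Poisson 95% interval 1.03 to 1.97) and 0.998 CPM (0.559 to 1.65). Mir194-1 had 24 and 4 reads, or 0.868 CPM (0.556 to 1.29) and 0.266 CPM (0.0725 to 0.682). Mir215 took 62.5% of the pair in replicate 1 (exact Clopper-Pearson 95% interval 49.5 to 74.3) and 78.9% in replicate 2 (54.4 to 93.9). The interval includes an even split in replicate 1 and leaves it out in replicate 2. The shared sequence of miR-194-5p makes the level of Mir194-1, and so the order of Mir215 and Mir194-1, uncertain. Neither gene reached 1 CPM in both libraries, whereas the other 5 genes did. For comparison, the 3 reads that a count of 0 allows correspond to 0.108 and 0.2 CPM in these libraries.

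The paralogous miRNAs miR-192 and miR-215, which share a seed, thus came from their loci in very unequal amounts. Mir192 exceeded Mir215 by 48.8 times in replicate 1 and 57.7 times in replicate 2. Their hairpins share no stretch long enough to hold a whole mature arm, so this comparison does not carry the uncertainty of Mir194-1 and Mir194-2.

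The loci were then compared by their share of all reads on the 7 genes, a measure that does not depend on how the libraries are scaled. The miR-34b/c locus held 88.3% (exact Clopper-Pearson 95% interval 88.25 to 88.40) in replicate 1 and 89.3% (89.22 to 89.48) in replicate 2. The miR-34a locus held 11.2% and 9.91%. The Mir192/Mir194-2 locus held 0.418% and 0.737%, and the Mir215/Mir194-1 locus 0.00925% and 0.00847%. The order of the 4 loci was the same in both libraries.

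**Figure D3:**
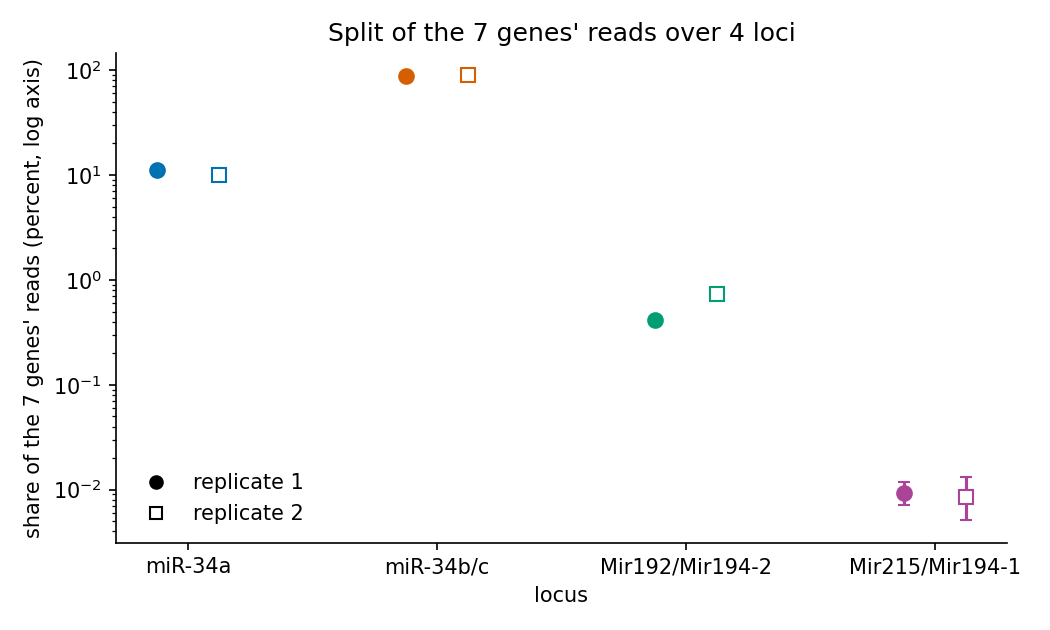
Share of all reads on the 7 genes (percent, log axis) that fell on each locus, in replicate 1 (filled circles) and replicate 2 (open squares), with exact Clopper-Pearson 95% intervals for counting error. The miR-34b/c locus lies at 88.3% and 89.3%, and the Mir192/Mir194-2 locus is the one whose share differs most between the libraries as a ratio, at 0.418% and 0.737%.

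Reads on miR-34b/c exceeded those on miR-34a by 7.86 times in replicate 1 and 9.02 times in replicate 2, a mean of 8.44 ± 0.824 (SD, n = 2). They exceeded those on Mir192/Mir194-2 by 211 and 121 times, and miR-34a exceeded Mir192/Mir194-2 by 26.9 and 13.4 times. Against Mir192 alone, which shares no whole arm with another hairpin, the excess of Mir34a was 39.9 and 25.7 times. Against Mir215/Mir194-1 the excess of miR-34b/c was 9550 and 10543 times, which rests on 64 and 19 reads at the smaller locus. The Mir192/Mir194-2 locus exceeded Mir215/Mir194-1 by 45.2 and 87.0 times. In each of the 6 pairs of loci, the locus that was higher in replicate 1 was also higher in replicate 2.

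Whether these ratios differed between the libraries was tested with Fisher's exact test, two-sided, with Benjamini-Hochberg adjustment over the 6 pairs. This compares 1 library with 1 other and not conditions, and it takes reads as independent, so its p-values cover counting error only. Estimated with edgeR over 556 genes, the replicates had a common coefficient of variation of 34.4%. The ratio of miR-34b/c to miR-34a differed by 1.15-fold (adjusted p = 1.95e-67, Fisher's exact test), which is within this spread. The ratios of miR-34a and of miR-34b/c to Mir192/Mir194-2 were 2.00-fold and 1.74-fold lower in replicate 2 (adjusted p = 2.7e-98 and 8.94e-68, Fisher's exact test). On the log2 scale the second is -0.80 and the first somewhat further from 0. Single genes with a mean of at least 10 CPM had log2 ratios with an SD of 0.84 between the libraries. These ratios of loci are therefore not set apart from the spread between replicates. Without Mir194-1 and Mir194-2 they moved to -0.64 for miR-34a and -0.44 for miR-34b/c (adjusted p = 2.1e-24 and 9.31e-13, Fisher's exact test). The ratio of Mir192/Mir194-2 to Mir215/Mir194-1 was 1.93-fold higher in replicate 2 (adjusted p = 0.0165, Fisher's exact test), but without Mir194-1 and Mir194-2 it no longer passed (adjusted p = 0.659, Fisher's exact test). The ratios of miR-34a and miR-34b/c to Mir215/Mir194-1 did not pass (adjusted p = 0.895 for both, Fisher's exact test), and with so few reads the counting SE of each log2 ratio was 0.38.

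Between the libraries, the miR-34 genes differed little after trimmed-mean (TMM) scaling and the genes of the Mir192/Mir194-2 locus differed more. By library totals the miR-34 genes differed more than the genes of that locus, as given below. With TMM, the log2 ratio of replicate 2 over replicate 1 was 0.17 for Mir34c (counting SE 0.0038), 0.12 for Mir34b and -0.03 for Mir34a. It was 0.61 for Mir192 and 1.52 for Mir194-2 (counting SE 0.07). The ratio of Mir194-2 is 2.88-fold, and 4.29% of the 210 genes with a mean of at least 10 CPM had a larger absolute log2 ratio. For Mir34a that share was 92.4%, for Mir34b 77.6%, for Mir34c 71.0% and for Mir192 29.0%. The TMM-scaled log2 ratios of these 210 genes had an SD of 0.84, so with this scaling Mir194-2 alone among the 5 genes above 10 CPM lay beyond 1 SD.

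An exact binomial test was run on 556 genes, with Benjamini-Hochberg adjustment over all of them. It called 5 of the 7 genes, Mir34b, Mir34c, Mir192 and Mir194-2 higher and Mir34a lower in replicate 2. The test called 41.5% of all tested genes, 24.6% higher and 16.9% lower, and it is passed readily at high counts, as by the 1.02-fold difference of Mir34a (adjusted p = 0.0137, exact binomial test). Mir215 and Mir194-1 did not pass, with log2 ratios of 0.39 and -0.67 (adjusted p = 0.614 and 0.562, exact binomial test). The median log2 ratio of the 7 genes was 0.17, against 0.09 over all tested genes. The scaling decides the direction of several of these. By library totals, which shift every log2 ratio down by 0.90, Mir34b, Mir34c and Mir192 were lower in replicate 2, at -0.78, -0.73 and -0.29. Mir34a, at -0.93 by library totals, was lower under both scalings and with DESeq2 size factors. Mir194-2, at 0.63 by library totals, was higher under all of them.

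**Figure D4:**
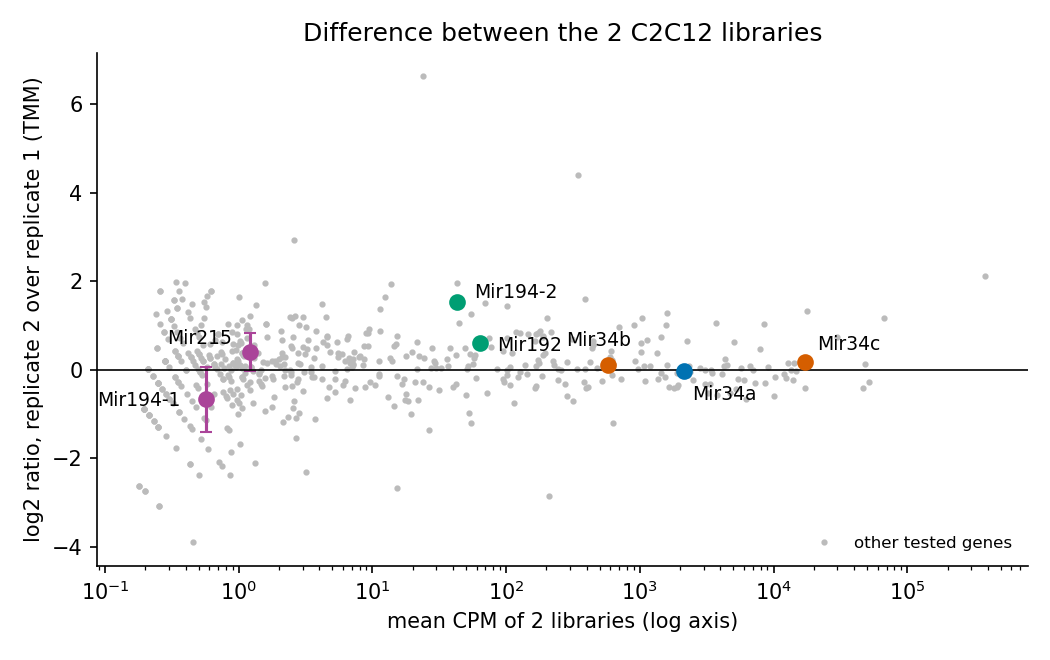
TMM-scaled log2 ratio of replicate 2 over replicate 1 against mean CPM (log axis) for the 556 tested genes, with the 7 genes coloured by locus and bars for 1 counting standard error. The miR-34 genes lie between -0.03 and 0.17, Mir192 at 0.61 and Mir194-2 at 1.52.

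Other miRNAs tied to p53 were examined as a list of 10 genes reported to be raised by p53 through transcription or processing, of which 9 were matched. All 9 reached 1 CPM in both libraries, as did 320 of all 2202 genes. The median of the mean levels of the 9 was 1446 CPM, against 43.9 CPM over those 320 genes. The highest were Mir22, with 60486 and 72725 CPM, and Mir143, with 61345 and 36022 CPM. Both lay above Mir34c in each library. Between the libraries 5 of the 9 were called higher and 3 lower in replicate 2 after TMM scaling, beside 24.6% and 16.9% of all tested genes, with a median log2 ratio of 0.16. By library totals 2 were called higher and 6 lower, beside 26 and 304 of all 556 tested genes. The median log2 ratio of the 9 was then -0.74. Mir22 is known to restrain proliferation in several cell types, and Mir143 is a smooth muscle and fibroblast miRNA.

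Of 5 genes whose miRNAs are reported to target the p53 message itself, 4 reached 1 CPM in both libraries, beside 320 of all 2202 genes. Mir504 had no read in either library. Mir125b-1, at 5341 and 3375 CPM, and Mir30d, at 3516 and 3938 CPM, were the highest. Both lay above Mir34a and below Mir34c in each library. Mir125b-1 shares a stretch of 24 bases with Mir125b-2, so its level is uncertain. After TMM scaling 3 of the 4 tested genes were called higher in replicate 2 and none lower, beside the same 24.6% and 16.9% of all tested genes, with a median log2 ratio of 0.21. By library totals 1 was called higher, Mir30d, and 3 lower, Mir125b-1 among them, beside 26 and 304 of all 556 tested genes.

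The Mir449 genes, relatives of the miR-34 genes that are known from multiciliated cells, were far lower than the miR-34b/c pair. Mir449a had 6503 and 1421 reads, or 235 and 94.6 CPM. Mir449c had 12 and 11 reads, and Mir449b 14 and 5, each below 1 CPM in both libraries. Mir34c was 90.9 times Mir449a in replicate 1 and 136 times in replicate 2. Of 7 epithelial genes 4 reached 1 CPM in both libraries, beside 320 of all 2202 genes. Together the epithelial list had 24.3 CPM in replicate 1 and 19.0 in replicate 2. Mir122, which marks hepatocytes, had 3.90 and 1.26 CPM beside the levels of Mir192 and Mir194-2. In CPM, Mir122, the epithelial list, Mir192, Mir215 and Mir194-1 were all lower in replicate 2, and Mir194-2 was higher there. After TMM scaling the 6 tested epithelial genes had a median log2 ratio of 0.52. Of these, 2 were called higher in replicate 2 and none lower, beside 24.6% and 16.9% of all tested genes. By library totals the median was -0.38, with none called higher and 1 lower, beside 26 and 304 of all 556 tested genes. DESeq2 size factors gave 1 higher and none lower, beside 124 and 107 of all 556. What part RNA of such cells had in the levels of Mir192 and Mir194-2 was not tested.

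The named genes closest in level to the highest gene of each locus were found by their distance in log2(CPM + 1) over the 2 libraries, which describes level only. Nearest to Mir34c were Mir17, of a cluster that promotes proliferation, at 17903 and 10609 CPM, and Mir29a, a repressor of collagen genes, at 19151 and 10128 CPM. Nearest to Mir34a were Mir872 at 3062 and 1526 CPM and Mir532 at 3131 and 1619 CPM. Mir330, at 69.4 and 47.2 CPM, and Mir101a, at 79.3 and 69.7 CPM, were nearest to Mir192. Mir101a shares 20 bases with Mir101b, which makes its level uncertain. Mir7069 and Mir878 each had the same 40 and 15 reads as Mir215.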

How the data were processed

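The members and gene lists were chosen with earlier results of these data known. The authors deposited 1 table of raw read counts per library, for 2202 miRNA genes on mm10 with GENCODE M21, per the deposited readme files. The aligner is not given in the sources used here, nor is the counter, and the labels link a protocol for adapter trimming. Rows that name no gene (unmapped, multi-mapping and other reads) held 49.7% and 38.8% of the reads and stayed out of totals. Multi-mapping reads alone were 33.4% and 22.8%.

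From the deposited gene-strand counts, CPM, ranks and shares were computed in Python 3.11.15 (SciPy 1.17.1). Intervals are exact at 95%, and floors take 3 counts for a count of 0. They cover counting error only, since amplified reads are not independent molecules. Counts of 27661907 and 15025315 reads set the precision. The libraries were compared with a two-sided exact binomial test on genes with at least 10 counts after TMM scaling (edgeR 4.0.16, R 4.3.3), with a threshold of 0.05 and a prior count of 0.5 in log2 ratios. The alternatives were other count filters, other totals, reads of either strand, scaling by library totals and DESeq2 1.42.0 size factors. On simulated counts of 556 genes for this comparison, 63 of 100 genes raised 2-fold, 46 of 100 lowered to 0.5-fold and 4 of 356 unchanged genes were called. The simulated counts held Poisson counting error only and no spread between replicates. They therefore do not give the rate of false calls between these libraries.

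All 7 members were named, with the 2 highest genes of each p53-related list, cell type markers, and the 2 genes nearest in level to the highest member of each locus. Mir449b, Mir449c and Mir504 were named after their values were seen. Hairpins and mature sequences came from RefSeq (GRCm38.p6), host genes and shared stretches from GENCODE M21.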

Additional observations from a re-analysis of the deposited data

Results flagged for a closer look

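Reads on the strand opposite to a gene, which the levels do not use, exceeded the limit of 3 that a count of 0 allows at Mir34b and Mir194-1. Mir34b had 35 such reads in replicate 1 and 9 in replicate 2, beside 20170 and 6372 on its own strand. Mir194-1 had 7 in replicate 1 and 2 in replicate 2, beside 24 and 4 on its own strand. The other 5 genes had no opposite-strand read in either library. Reads that mapped to several places were also outside the levels and numbered 18382947 in replicate 1 and 5599235 in replicate 2. How many of them came from miR-194-5p was not tested. No control libraries were analysed here.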

How the results depend on the processing

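No paired analysis was possible because the libraries form a single group. Leaving out a replicate gives the other library's value, as printed above, and kept the order of the 4 loci. With Mir21a left out of the totals, mean levels were 27769 CPM for Mir34c, 3418 for Mir34a, 930 for Mir34b, 107.8 for Mir192, 78.5 for Mir194-2 and 2.01 for Mir215. As CPM of all reads they were 9316, 1159, 313, 35.3, 24.6 and 0.669 in that order. Without Mir194-1 and Mir194-2 the share of Mir192/Mir194-2 was 0.335% and that of Mir215/Mir194-1 0.00625%, and with reads of either strand the latter was 0.00981%. The log2 ratio of Mir192/Mir194-2 to Mir215/Mir194-1 between the libraries was then 0.24 without Mir194-1 and Mir194-2, against 0.95 with them. By library totals the log2 ratios of Mir34b (-0.78), Mir34c (-0.73) and Mir192 (-0.29) reversed, and Mir194-1, at -1.56, passed the test (adjusted p = 0.0461, exact binomial test). By library totals 330 of 556 genes were called, 26 higher and 304 lower in replicate 2, against 231 with TMM, 137 higher and 94 lower. DESeq2 size factors gave 124 higher and 107 lower. Library totals called 6 of the 7 genes, and the other 6 settings, TMM included, called 5 each, 4 higher and 1 lower. The length-scaled order and TMM factors without Mir21a were chosen after seeing the data. Counts of 4 to 40 reads give wide intervals for Mir215 and Mir194-1. The level of Mir194-1 is also limited by the sequence of miR-194-5p that it shares with Mir194-2.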
